A study of Homo sapiens with 3 samples.

Results

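The accessibility of 43 cell cycle genes was examined in cultures of neurons, a cell type that leaves the cell cycle as it matures. The genes were a named list of cyclins, cyclin-dependent kinases, E2F factors, replication and mitosis genes and cell cycle brakes, and all 43 matched RefSeq symbols, out of 20037 protein-coding genes on the main chromosomes. The neurons came from the KOLF2.1J-hNGN2 line, KOLF2.1J being a human stem cell line reprogrammed to pluripotency and NGN2 a transcription factor that drives neuron formation, and were taken at day 14 of differentiation. The 3 biological replicates form a single group from 1 line, with no untreated or undifferentiated control analysed here, and the title of the study concerns regulatory elements of MAPT, the gene of the tau protein.

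The cell cycle is driven by cyclins, which activate cyclin-dependent kinases (CDKs) in turn. D-type cyclins with CDK4 or CDK6 and E-type cyclins with CDK2 inactivate the retinoblastoma protein, which frees E2F factors to switch on the genes of DNA replication. A later wave of genes, including cyclin B, CDK1 and the spindle kinases, drives mitosis. Many mitotic promoters carry CCAAT boxes, bound by the factor NF-Y, and a short element called the cell cycle genes homology region (CHR). In resting cells the DREAM complex, which contains a retinoblastoma relative and E2F4, binds E2F sites or CHR elements and holds such genes silent, so an accessible promoter is not in itself a sign of transcription.

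ATAC-seq uses the Tn5 transposase to cut and tag accessible DNA, and the authors combined the replicates into 1 list of 145092 summit entries, which form 65234 distinct regions. No value per replicate was analysed, so no spread between replicates and no test can be given, and all comparisons are between genes within this list. Each summit has a fold enrichment, the authors' linear ratio of tags at the summit to a local background. Tag counts, recovered from the ratio and the p-value of each entry, ranged from 58 to 3783 over the list, and the intervals below are exact Poisson 95% intervals that cover counting error only, since reads copied by PCR are not independent molecules. A gene end was called accessible when the summit of a region lay within 1 kb of either outer end of the gene, and the region with the smallest p-value at the ends stands for the gene. The depth of each library is unknown.

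Marker genes were read in the same way. Of 13 neuronal markers 10 had an accessible end, near the 66.7% of all coding genes, with a median fold enrichment of 8.30 and a median of 713.5 tags. They ranged from ELAVL3 at a fold enrichment of 3.24 to SYN1 at 10.8, with MAP2 at a fold enrichment of 10.2 and 1080 tags, SYT1 at 10.3 and 1185 tags, and STMN2 at 5.94 and 550 tags. TUBB3, ELAVL4 and RBFOX3 had none at an outer end, although a summit lay at -35 bp from a listed start inside RBFOX3. All 8 neural progenitor markers had one, at fold enrichments from 3.96 for NES to 7.89 for SOX1. For PAX6 it was the far end alone, and the summit nearest to its first listed start lay 6567 bp away. The progenitor markers' median fold enrichment of 5.21 was below that of the neuronal markers, whereas their median of 1066 tags was above it. An accessible end was also found for 2 of 5 pluripotency markers, LIN28A at 3.04 and PRDM14 at 3.90, but not for POU5F1, NANOG or DPPA4, although a summit lay at -15 bp from a listed start inside DPPA4. Of 8 non-neural markers CDX2 alone had one. The list is a pool of many cells, so a site open in all cells and a site open in a share of them cannot be told apart, and whether the culture still held dividing cells was not tested.

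Promoters of the replication genes often carried E2F words and those of the mitosis genes CHR words, while CCAAT and GC boxes were common in both. No test of these differences was made. Promoter windows of 250 bases before to 50 after the first RefSeq start were at hand for 34 of the 43 genes, and words were searched on both strands. The E2F words were TTTCCCGC, TTTCGCGC, TTTGCCGC and TTTGGCGC, the CHR words TTTGAA and TTCGAA, the CCAAT box CCAAT, the GC box GGGCGG and the TATA box TATAAA. The 2 replication genes with the highest fold enrichment among those with an E2F word were MCM3 and MCM2, which encode subunits of the helicase that opens replication origins. Their sequences (RefSeq, GRCh38.p14, 200 bases before to 25 after the start, 5′ to 3′) are shown with the E2F words in capitals. They lie at chr6:52284718-52284942, minus strand, and at chr3:127598211-127598435, plus strand.
MCM3: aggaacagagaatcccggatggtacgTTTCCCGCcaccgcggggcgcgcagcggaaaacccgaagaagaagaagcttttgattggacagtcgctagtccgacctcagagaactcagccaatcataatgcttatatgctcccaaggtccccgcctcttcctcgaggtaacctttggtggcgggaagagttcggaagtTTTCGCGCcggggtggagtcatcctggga
MCM2: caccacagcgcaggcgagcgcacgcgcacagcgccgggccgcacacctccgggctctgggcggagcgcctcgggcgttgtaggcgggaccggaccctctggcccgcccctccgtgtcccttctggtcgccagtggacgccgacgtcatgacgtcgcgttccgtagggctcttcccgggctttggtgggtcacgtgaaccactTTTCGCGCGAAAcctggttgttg
In MCM3 the words stood at -174 and -4, counted from the start. In MCM2 a pair of words on opposite strands, at 3 and 7, overlapped just after the start.

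For the mitosis genes, the next sequences have the CHR and CCAAT words in capitals. CENPF, a kinetochore protein (chr1:214602995-214603219, plus strand), and CDK1, the kinase of mitotic entry (chr10:60778131-60778355, plus strand), had the highest fold enrichments among the mitosis genes that hold both words. CCNB1 and CCNB2, the B-type cyclins that activate CDK1, were added after the values had been seen. CCNB1 had the highest fold enrichment of all 43 genes, and CCNB2 holds both words close to its start (chr5:69166950-69167174, plus strand, and chr15:59104946-59105170, plus strand).
CENPF: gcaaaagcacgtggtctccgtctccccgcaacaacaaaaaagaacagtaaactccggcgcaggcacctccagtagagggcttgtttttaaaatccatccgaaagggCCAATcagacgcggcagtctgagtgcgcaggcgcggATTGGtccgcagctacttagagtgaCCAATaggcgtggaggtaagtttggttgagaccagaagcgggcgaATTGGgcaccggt
CDK1: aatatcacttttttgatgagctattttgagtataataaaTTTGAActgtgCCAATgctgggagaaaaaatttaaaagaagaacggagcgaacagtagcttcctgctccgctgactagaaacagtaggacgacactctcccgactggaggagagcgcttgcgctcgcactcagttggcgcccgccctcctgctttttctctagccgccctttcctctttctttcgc
CCNB1: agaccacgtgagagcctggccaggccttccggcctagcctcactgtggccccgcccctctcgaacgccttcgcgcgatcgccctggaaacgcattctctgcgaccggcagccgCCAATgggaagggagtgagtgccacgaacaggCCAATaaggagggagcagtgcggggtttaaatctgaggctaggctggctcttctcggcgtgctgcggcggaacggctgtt
CCNB2: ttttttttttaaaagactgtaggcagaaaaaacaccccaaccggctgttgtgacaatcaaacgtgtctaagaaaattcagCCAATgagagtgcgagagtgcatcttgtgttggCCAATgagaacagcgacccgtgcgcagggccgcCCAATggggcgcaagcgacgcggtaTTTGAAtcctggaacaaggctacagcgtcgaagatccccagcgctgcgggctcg
In the stretch shown, CCNB2 had CCAAT boxes at -120, -87 and -54, each 33 bases from the next, and a CHR word at -29. Another CCNB2 box lay at -244. CCNB1 had boxes at -87 and -55, which are 32 bases apart, and neither CHR word in its window. In CDK1 the CHR word lay at -161, and in CENPF it lay at 41, beyond the stretch shown.

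An E2F word was found in 6 of 7 replication promoters and 3 of 4 E2F promoters, but in 2 of 15 mitosis promoters, against 4.44% of all 15842 coding promoters in the table. The replication promoter without one was that of RRM2, a subunit of ribonucleotide reductase. A CHR word was found in 10 of 15 mitosis promoters and in 1 of 7 replication promoters, against 13.6% of all. MCM6, CDK1 and CENPA held both an E2F and a CHR word, as did E2F3. Both a CHR word and a CCAAT box were present in 9 of 15 mitosis promoters, and in 5.61% of coding promoters outside the list. Within the narrower window from 100 bases before the start, 8 of the 15 mitosis promoters held a CHR word, against 5.47% of coding promoters outside the list.

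The CCAAT box was more widespread, in 12 of 15 mitosis promoters, 5 of 7 replication promoters and 36.4% of all. Its place was narrower than its presence. In 7 of 15 mitosis promoters (TOP2A, CCNB1, CCNB2, CCNA2, BUB1, CENPF and CDC20) a box began 50 to 60 bases before the start, as it did in 3.91% of coding promoters outside the list. The same held for E2F7, MCM6, MCM7 and CDKN1B. This interval was chosen after the positions had been seen. Neither an E2F nor a CHR word was found in the 4 G1 promoters or in the 4 brake promoters of the table. The single RB1 entry is for a start 172.7 kb inside the gene, so it does not describe the promoter at the RB1 end. A GC box was present in 26 of the 34 promoters (58.3% of all) and a TATA box in that of TOP2A only (9.75% of all).

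**Figure D1:**
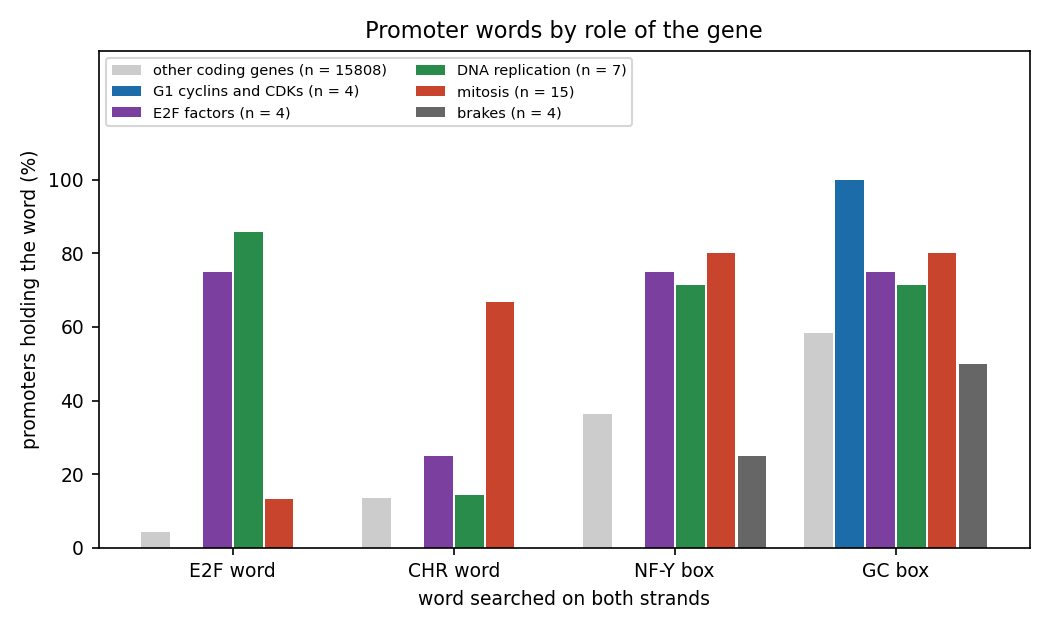
Share of promoters (y axis, percent) that hold each word (x axis, NF-Y box meaning CCAAT) for other coding genes in grey and for the 5 roles in colour, with the number of promoters in the key. The E2F word stands out in replication and E2F promoters (6 of 7 and 3 of 4), and the CHR word in mitosis promoters (66.7%).

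Every one of the 43 genes had an accessible end. Among all coding genes this held for 66.7%, and among coding genes within 20% of each gene's length it held for 67.9% on average. The strongest regions had a median fold enrichment of 13.3 (quartiles 9.75 and 15.3), against 10.6 for the other coding genes with an accessible end (quartiles 7.13 and 13.4), and a median of 1172 tags against 957. All 43 had the highest score of 1000, as did 95.5% of coding genes with an accessible end. Fold enrichment was above the other coding genes' median in 28 of the 43 genes, and tag count also in 28. With a window of 500 bp 39 of the 43 genes had an accessible end, 6 of 8 among the G1 genes, whose median fold enrichment fell from 9.61 to 7.14. Within the window of 1 kb, the summits farthest from an end were those of CDK6 at 960 bp, CCNE2 at 943 bp and CCND3 at 750 bp.

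For the 34 genes with a listed strand, the accessible end was the start in 31 and both ends in 3 (E2F1, MCM3 and CDKN2A), and never the far end alone. A summit at the start end was found for 66.9% of the coding genes with a listed start, and at both ends for 5.36% of all coding genes. The nearest summit lay within 1 kb of the first listed start in 32 of the 34 genes (68.4% of the coding genes with a listed start). CCND3 and RB1, whose first listed starts lie inside the gene, were the exceptions. The promoters were rich in CpG. Their median ratio of observed to expected CpG was 0.941, against 0.761 for other coding genes. Genes of similar CpG ratio had an accessible end in 87.4% on average. That average includes the RB1 entry, at 14.2%, whose start lies inside the gene. Fold enrichment was above the median of genes of similar CpG ratio in 22 of the 34 genes, RB1 among them.

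**Figure D2:**
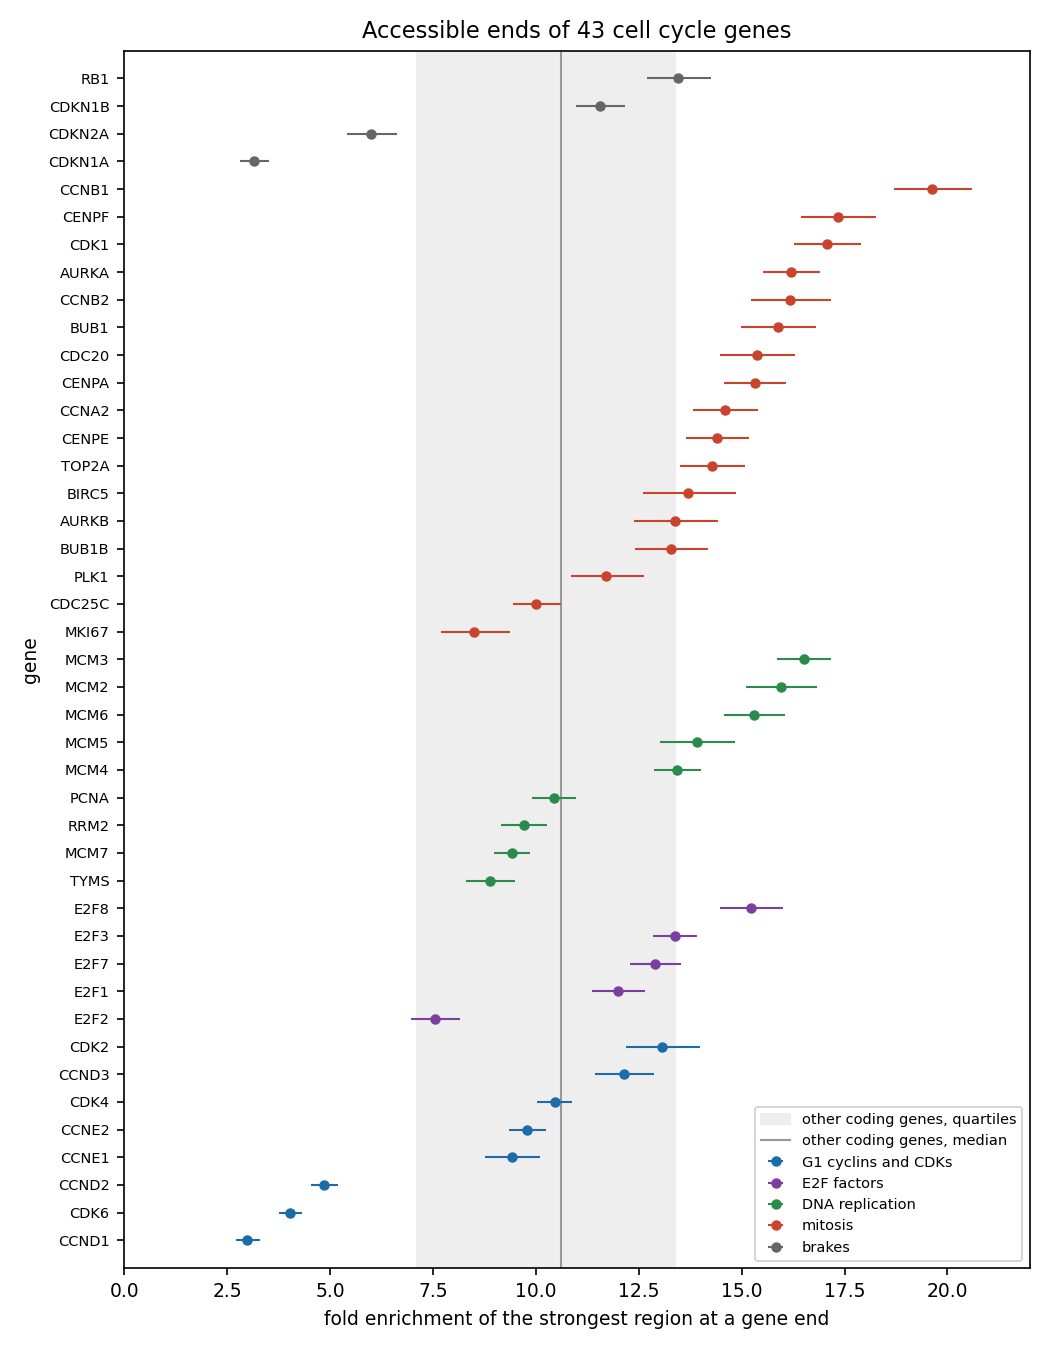
Fold enrichment of the strongest region at an end (x axis) for each of the 43 genes (y axis), coloured by role; bars are the counting interval of the summit tags with the background held fixed, and the grey band and line are the quartiles and the median of other coding genes. Of the 17 mitosis genes 15 lie to the right of the line at 10.6, whereas CCND1, CDK6, CCND2 and CDKN1A lie below 5.

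Of the 5 roles, mitosis genes had the highest median fold enrichment at their ends, 14.6 over 17 genes. Of these, 15 exceeded the median of other coding genes, and 15 that of genes of similar length. By tags their median of 1162 was below those of the E2F genes (1547) and the replication genes (1532). The order by fold enrichment also depended on shared ends. Among genes with no other gene end at the summit, the median was 14.6 for 4 replication genes and 14.3 for 12 mitosis genes. CCNB1 (chromosome 5, 69166640 to 69167651) had 1688 tags (interval 1608 to 1770) over a background of 85.0, a fold enrichment of 19.6 and percentile 99.9 among accessible coding ends. CENPF (chromosome 1, 214602716 to 214604256) had 1412 tags (interval 1339 to 1488) and a fold enrichment of 17.3. CDK1 (chromosome 10, 60777959 to 60779111) had 1749 tags (interval 1668 to 1833) and a fold enrichment of 17.1. These 3 summits lay 122, 55 and 46 bp from the gene end, so the CCAAT boxes printed above fall inside the accessible regions.

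The kinases and checkpoint genes followed. AURKA, the centrosome kinase, had 2090 tags and a fold enrichment of 16.2. AURKB, its relative at the centromere, had 679 tags (interval 629 to 732), but over a background of only 49.9, so that its fold enrichment was 13.4. PLK1, which acts from centrosome maturation to cell division, had 696 tags and a fold enrichment of 11.7. BUB1 and BUB1B, of the spindle checkpoint, stood at 15.9 and 13.3, and CDC20, the activator of the anaphase-promoting complex that this checkpoint holds back, at 15.4.

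The remaining mitosis genes ran from 16.2 down to 8.50. CCNB2 stood at 16.2, CENPA, the histone of the centromere, at 15.3, CCNA2, the cyclin of S and G2 phase, at 14.6, CENPE, the kinetochore motor, at 14.4, and TOP2A, which untangles chromosomes, at 14.3. BIRC5, or survivin, had a fold enrichment of 13.7 with 585 tags. The lowest were the phosphatase CDC25C, at 10.0, and MKI67, at 8.50. MKI67, which encodes the proliferation marker Ki-67, collected 406 tags (interval 367 to 447), percentile 18.8 of accessible coding ends. Its promoter was thus accessible but had fewer tags than those of the other 16 mitosis genes.

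CDC25C had a second, stronger region. A listed start lies 6.48 kb inside the gene, and the region there (chromosome 5, 138331314 to 138332392) had 1881 tags (interval 1797 to 1968) and a fold enrichment of 18.1, percentile 99.1. The region at the outer end, with 1137 tags, is shared with an end of FAM53C. An outer end of another annotated gene also lies within 1 kb of the inner summit, so neither region can be assigned to CDC25C alone.

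Replication genes were next in order. The 9 genes had a median fold enrichment of 13.4 and a median of 1532 tags, and 7 of them exceeded the other coding genes' median of tags. Of the helicase subunits, MCM3 (chromosome 6, 52284167 to 52285458) had 2381 tags (interval 2286 to 2479) and a fold enrichment of 16.5, and MCM2 (chromosome 3, 127597965 to 127598817) had 1344 tags and 15.95. MCM6 stood at 15.3, MCM5 at 13.9, MCM4 at 13.4 and MCM7 at 9.41. MCM7 was low in fold enrichment but had 1888 tags, percentile 89.3, over a background of 199.7. The order of the 6 subunits therefore depended on the measure.

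PCNA, the sliding clamp of DNA polymerase, had 1532 tags and a fold enrichment of 10.4 at its outer end, beside an end of CDS2. A listed start 6.66 kb inside PCNA had the stronger region (chromosome 20, 5119238 to 5120468), with 2022 tags (interval 1935 to 2112) and a fold enrichment of 13.9. An outer end of another annotated gene also lies within 1 kb of that summit. RRM2 stood at 9.71, and TYMS, the enzyme that makes thymidylate, at 8.88 with its summit 709 bp inside the gene.

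E2F genes were open as well. E2F8 stood at 15.2, E2F3 at 13.4, E2F7 at 12.9, E2F1 at 12.0 and E2F2 at 7.55. E2F1, E2F2 and E2F3 encode activators, and E2F7 and E2F8 encode repressors that act late in the cycle. E2F3 (chromosome 6, 20401145 to 20402628) had 2398 tags (interval 2303 to 2496), the highest count of all 43 genes. A second listed start of E2F3, 1.74 kb inside, had only a weak region with 381 tags and a fold enrichment of 2.15. An outer end of another annotated gene also lies within 1 kb of that weak summit. E2F2, at 652 tags, had the fewest tags of the group, and its interval (603 to 704) lay below those of the other 4.

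G1 genes were the least enriched group of the drivers. Their median fold enrichment was 9.61, and 2 of 8, CDK2 at 13.1 and CCND3 at 12.1, exceeded the other coding genes' median. Both of these regions are shared with an end of another coding gene, PMEL and TAF8, and the CCND3 summit lay 750 bp from its own end. The 4 G1 genes with no other gene end at the summit had a median of 7.14. CCND1, the cyclin D1 gene (chromosome 11, 69640722 to 69641494), had 425 tags (interval 386 to 467) over a background of 141.3 and a fold enrichment of 2.99, percentile 1.37. CDK6 stood at 4.03 and CCND2 at 4.86. These 3 genes had high local backgrounds, of 141.3, 198.6 and 169.5 tags, against a median of 86.8 at other coding ends, and by tag count CDK6 and CCND2 stood at percentiles 41.5 and 42.8, but CCND1 at 19.9.

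CDK4, the partner of the D-type cyclins, showed the opposite combination. It had 2314 tags (interval 2221 to 2410), percentile 96.0, but over the highest background of the 43 genes, 220.4, so that its fold enrichment was 10.5. The E-type cyclins CCNE1 and CCNE2 stood at 9.42 and 9.79, with 794 and 1847 tags. The region at CCNE2 is shared with an end of NDUFAF6, with its summit 943 bp from the CCNE2 end. CCND3 has a listed start 108.2 kb inside its outer end, and the region there had 1300 tags and a fold enrichment of 13.3.

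**Figure D3:**
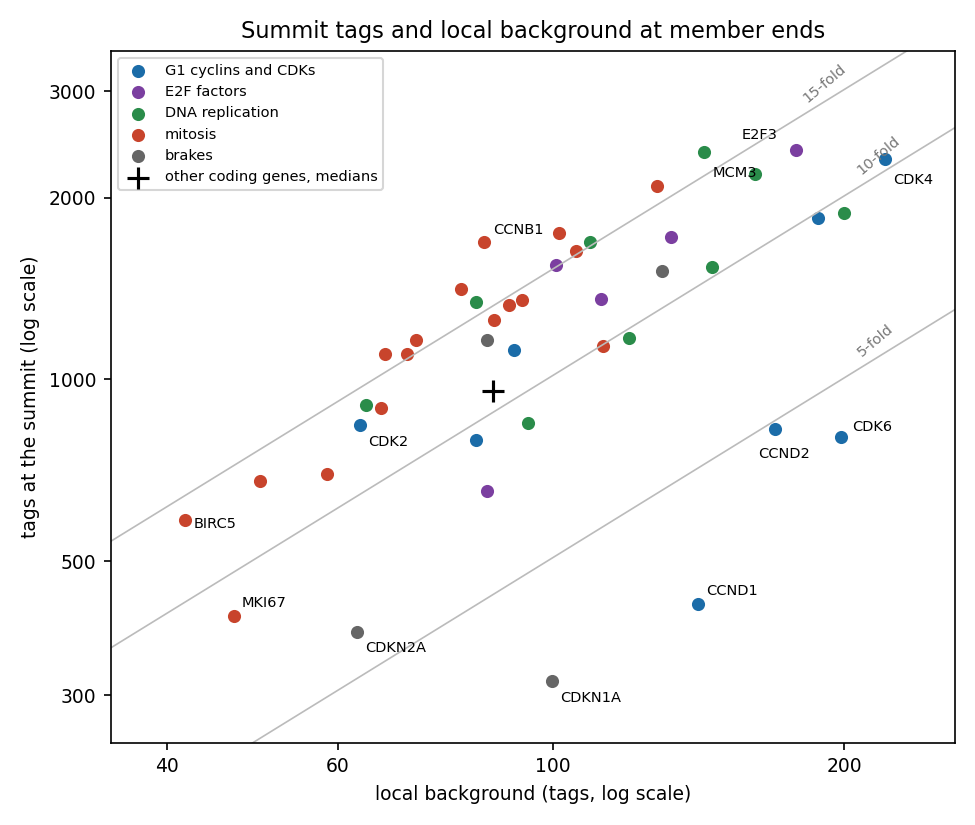
Tags at the summit (y axis, log scale) against the local background (x axis, log scale) for the 43 genes, coloured by role; grey lines mark equal fold enrichment and the cross marks the medians of other coding genes. Mitosis genes lie mostly at low background along the upper line, whereas CCND1, CCND2 and CDK6 lie at high background below the line of 5.

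The 2 measures ranked the genes differently. Among both the 10 highest by fold enrichment and the 10 highest by tags were 4 genes, and no such overlap was computed over all coding ends. Mitosis genes, which are 17 of the 43, made up 8 of the 10 highest by fold enrichment and 3 of the 10 highest by tags. The median background was 155.4 tags at G1 genes and 80.5 at mitosis genes, a ratio of 1.93.

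Brakes ranged from 3.14 to 13.5 in fold enrichment. RB1, which encodes the retinoblastoma protein, had 1163 tags and a fold enrichment of 13.5, in a region shared with the divergent RB1-DT. CDKN1B, which encodes the CDK inhibitor p27, had 1509 tags (interval 1434 to 1587) and a fold enrichment of 11.6. CDKN2A had 382 tags (interval 345 to 422) and a fold enrichment of 5.996 at its outer end, and a second listed start 20.5 kb inside had 232 tags (interval 203 to 264) and 5.01. The locus encodes 2 unrelated proteins from separate first exons, and both starts were among the weaker ones.

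CDKN1A, the gene of the CDK inhibitor p21, shows what the outer end can miss. At its outer end lay a weak region with 316 tags (interval 282 to 353) and a fold enrichment of 3.14. The listed start lies 2.25 kb inside, and the region there (chromosome 6, 36678300 to 36679872) had 741 tags (interval 689 to 796), a fold enrichment of 7.09 and percentile 24.6. An outer end of another annotated gene also lies within 1 kb of that summit, so the region cannot be assigned to CDKN1A alone.

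Many of these regions serve more than one gene end. In 19 of the 43 genes (44.2%) the end of another gene lay within 1 kb of the summit. This share was close to the 43.4% of all accessible coding genes. In 12 of the 19 the other gene was a coding gene, a count for which no share over all coding genes was computed. Among them MCM4 shares its region with PRKDC, MCM7 with AP4M1, AURKA with CSTF1, MCM2 with TPRA1 and CCNA2 with BBS7. Accessibility at these ends cannot be assigned to 1 gene.

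Distal regions, with a summit over 1 kb from the outer ends of all annotated genes, were counted within 50 kb of the gene ends. The 43 genes had a median of 3, against 2 for other coding genes, and no region was shared between them. There was at least 1 around 39 of the 43 genes (83.2% of all coding genes) and at least 5 around 8 of them (15.9% of all). Against coding genes of similar length, 24 genes were above the median, 11 equal to it and 8 below. Of the G1 genes 7 of 8 were above, and of the mitosis genes 7 of 17 were above and 5 below.

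No distal region was found around 4 of the 43 genes (9.30%), against 16.8% of all coding genes. These were CCNB1, which had the strongest end by fold enrichment, CCNA2, RB1 and CCNE2. The end of CCNE2, at 9.79, was below the median fold enrichment of other coding genes. RB1 stood at percentile 2.63 among genes of similar length. The highest counts were 10 around RRM2 (percentile 98.7) and 9 around CCND1 (percentile 99.7), followed by 7 around MCM5, 6 around CENPF and 5 each around CDK6, CCND2, CCND3 and CDKN1B.

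**Figure D4:**
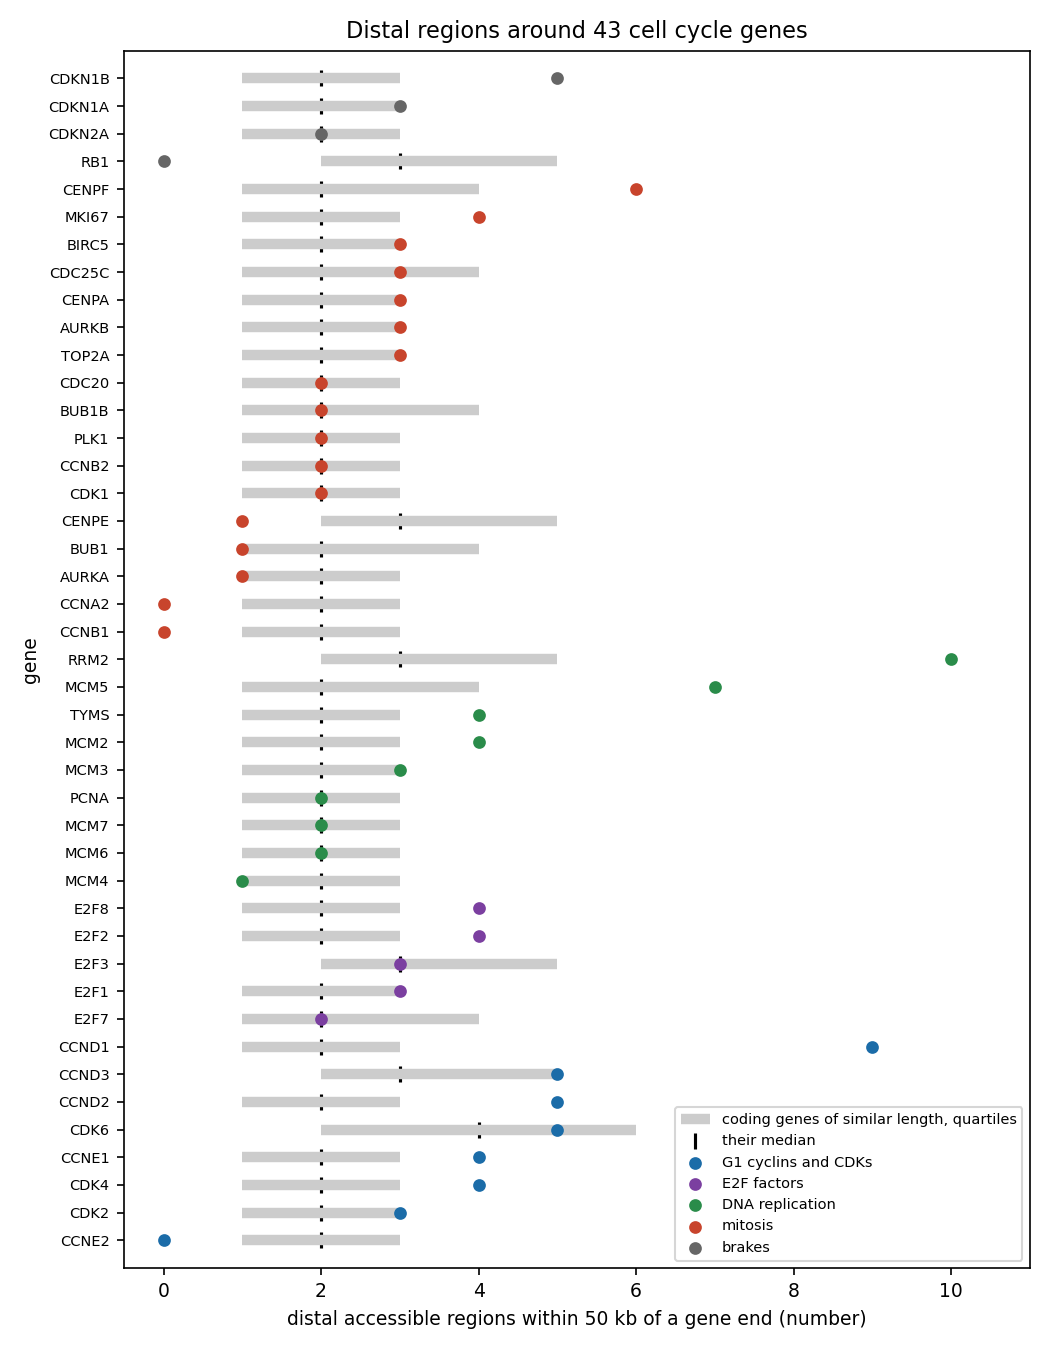
Number of distal regions within 50 kb of a gene end (x axis) for each of the 43 genes (y axis), coloured by role; grey bars and black ticks are the quartiles and median of coding genes of similar length. RRM2 (10) and CCND1 (9) lie farthest to the right, and CCNB1, CCNA2, CCNE2 and RB1 lie at 0.

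Around CCND1 the distal regions were close together and mostly low in fold enrichment. By tags all 9 lay above 201, the median of all distal regions. Of the 9, 5 lay within 5.26 kb of an end, 2 of these inside the gene, with fold enrichments from 2.32 to 5.46. The strongest by fold enrichment lay 31.6 kb away (69685759 to 69686367), with 261 tags and a fold enrichment of 7.19. The one with the most tags, 732, lay 2.02 kb away. Of the 10 around RRM2, 5 were inside the gene, which spans 88.4 kb in RefSeq, and the fold enrichments ranged from 2.87 to 8.33. CCND2 had a region 2.63 kb beyond an end (chromosome 12, 4307590 to 4308651) with 596 tags and a fold enrichment of 10.4, above the 4.86 at its own end.

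The 134 distal regions had a median fold enrichment of 5.21, close to the 5.11 of all 48428 distal regions, and 260.5 tags at the median against 201. By fold enrichment the first was a region 30.3 kb from MCM4 (chromosome 8, 48008089 to 48009168), inside UBE2V2, at 15.9 with 1379 tags. CDKN1B had 3 strong ones, all inside its neighbour GPR19 at 12.6, 20.7 and 32.7 kb, with fold enrichments of 14.3, 11.4 and 9.37. The region 6.94 kb from a CCND3 end, at 13.3, coincides with a listed start of CCND3. It is 1 of 3 counted as distal that lie at a listed start inside their gene, the others being in CDK6 and CDKN2A. The rest of the 10 highest lay near CDK2 (11.3), MCM2 (11.1), CENPF (10.9), E2F7 (10.7), CCND2 (10.4) and AURKB (10.4).

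**Figure D5:**
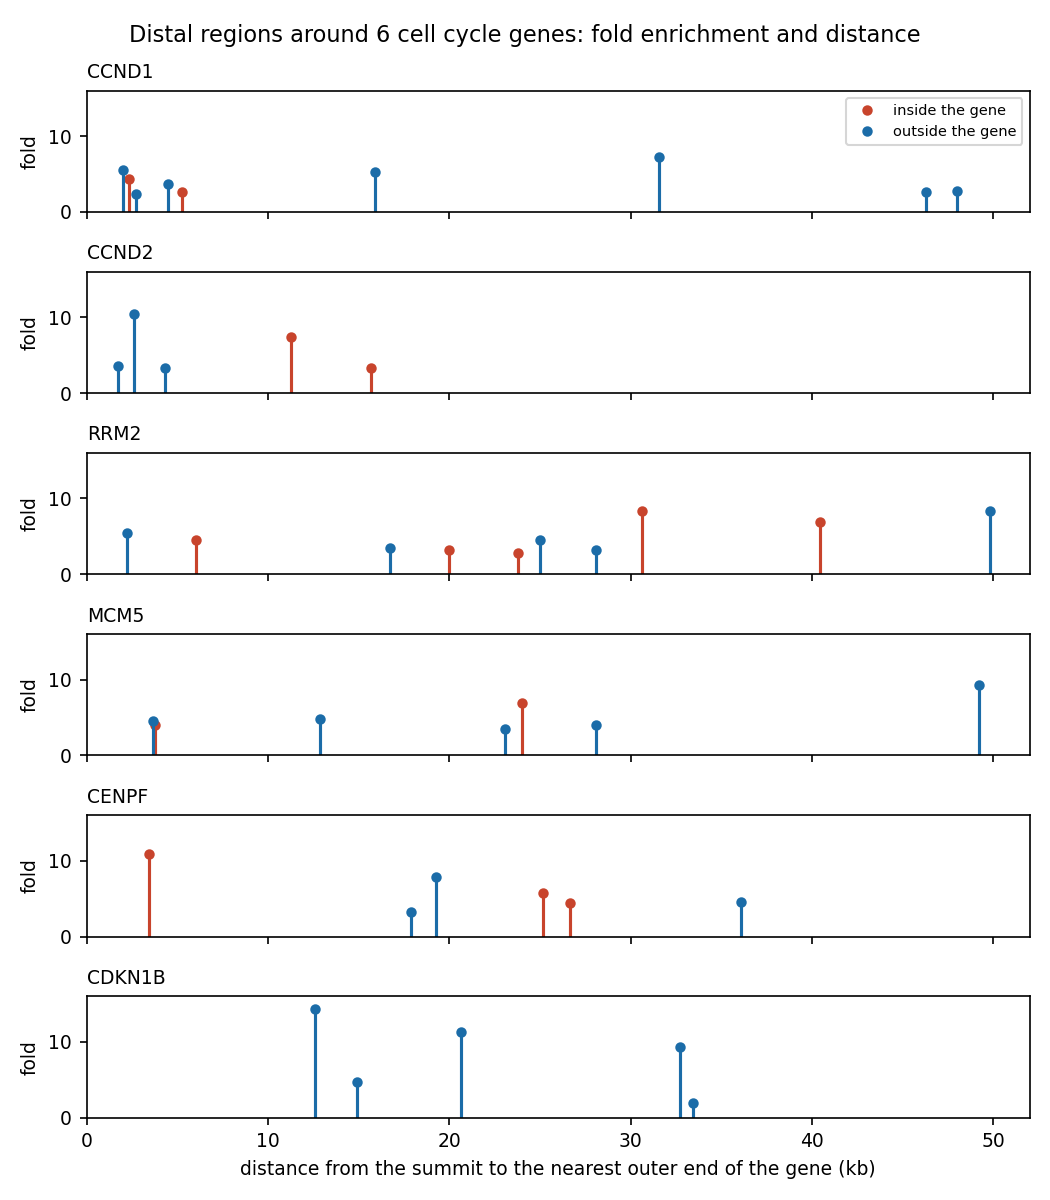
Fold enrichment (y axis) of each distal region against the distance of its summit from the nearest outer end (x axis, kb) for 6 genes, red inside the gene and blue outside. Of the 9 regions of CCND1, 5 lie within 5.26 kb of an end, and those of CDKN1B lie from 12.6 kb outward.

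Other genes of the cell cycle, not in the list of 43, were read in the same way, from lists of the pathway. Of 72 such genes 70 had an accessible end, against 66.7% of all coding genes. Their medians were a fold enrichment of 13.5 and 1354 tags, against 10.6 and 957 for the coding genes outside the list of 43. The 2 without one were ORC1, of the origin recognition complex, and ANAPC5, of the anaphase-promoting complex, and both had a summit close to a listed start inside the gene, at -101 and -59 bp. The 14 genes of the retinoblastoma family and its partners and the 4 other brakes were all accessible, with median fold enrichments of 10.7 and 11.1. The 10 spindle and kinetochore genes had a median of 15.2. The highest of the 72 were MCM10, a replication initiation factor, at 20.1, ORC3 at 19.1 and TTK, a spindle checkpoint kinase, at 18.4.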

How the data were processed

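The deposited file is 1 list of ATAC-seq peaks for all 3 samples, named in the labels as the optimal set by irreproducible discovery rate, in hg38 per the submitters' processing notes. The aligner, peak caller and versions are not given in the sources used here. Per summit the authors deposited a fold enrichment (a linear ratio, 1.29 to 31.9), a −log10 p (5.92 to 2945), a summit offset and a score from 540 to 1000. Entries with the same bounds were merged, keeping the one with the highest −log10 p. Whole tag counts were recovered from ratio and −log10 p, taking p as the Poisson chance of more tags than seen and adding 1 to tags and background in the ratio; all 145092 entries fitted within 0.00079 units, and the recovery and interval code was tested on simulated data. The lowest background was 29.2 tags. Because the ratio divides by a local background, it is lower where the surroundings are also open, so tags are given beside it. The 3 replicates were pooled by the authors, so their depth is unknown and no test was made. Positions are counted from 1.

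Gene bounds and promoters came from RefSeq, GRCh38.p14. The table lists starts for 34 of the 43 genes. The ratio of observed to expected CpG was taken over each window, and genes were called similar within 0.05. The 43 genes, their roles and the other lists were chosen with earlier results of these data known. The text names all 43; of 72 other genes, those without an accessible end and the 3 highest; the 10 distal regions that ranked first by fold enrichment; and neighbours for location. One pluripotency marker did not match. Regions around single genes were described further after their values had been seen. Computations used Python 3.11.15, numpy 2.4.6, scipy 1.17.1 and pandas 2.3.3. Alternatives were other windows, a score of at least 830, overlap of 1 bp, the start end only, other distal rules, and other promoter windows and words. The comparison of promoters by first start, by distance of the summit and by shared ends was added after the data had been seen.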

Additional observations from a re-analysis of the deposited data

How the results depend on the processing

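Of 251 recomputed values for 75 results, 225 stayed within the limit set for them and 26 moved. The limit was 1.5 times for a count and the counting or binomial interval otherwise. Of the 251, 129 were fold enrichments of single genes, and 124 of these stayed. Most of the 124 were the same region read again, and a score limit of 830 could not change them. The 225 is therefore not a count of separate checks. All 43 genes kept an accessible end with a window of 2 kb, a score of at least 830 and any overlap of 1 bp. None of these settings could lower the count, since all 43 scored 1000 and the wider rules keep every summit within 1 kb. All 34 genes with a listed start kept one when only the start end was read. With a window of 500 bp, 39 of the 43 did. CCND3, CCNE2, E2F8 and TYMS were lost, and CDK6 fell to the weaker of its regions, at 2.19. Reading only the start end left 4 G1 genes, because the table lists starts for no more. Genes of similar promoter CpG had an accessible end in 87.4% (over 34 genes, with the RB1 entry included), against 67.9% for similar length (over 43 genes). The median fold enrichment of 13.3 became 4.68 over all 119 summit entries, and the same ends held 1172 tags at the median. The median number of distal regions was 1 within 20 kb and 5 within 100 kb, against 1 and 4 for other coding genes. With the narrower promoter window the GC box was found in 58.8% of the 34 promoters, the TATA box in 0% and the CHR word in 5.47% of other coding promoters. With E2F words of 7 letters all replication promoters (100%) and 17.0% of other coding promoters held one. Each setting here admits other amounts of sequence or other entries or genes by construction. No paired analysis was possible because there is 1 group, whose 3 replicates were pooled into a single list. Leaving out a replicate was likewise not possible.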
